A study of Homo sapiens with 22 samples.

Results

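Histone genes were followed in the RNA-seq samples of the study as all rows whose symbol begins with HIST1H, HIST2H, HIST3H, HIST4H or H2AF, together with H1F0, H1FX, H3F3A and H3F3B. The rule found 64 of the 20668 gene symbols. Of these, 54 were taken as replication-dependent histone genes, named for the HIST clusters they lie in, and 10 as variant histone genes. The replication-dependent class follows the symbol alone, so it counts rows whose current names, H2BP1 and H2BC20P, are those of pseudogenes. The rule itself uses no measured value, but the members were chosen with earlier results of these data known. MDA-MB-231 is a triple-negative breast cancer (TNBC) cell line with a mesenchymal character, and all cells came from this single line. They were kept in phenol red-free medium with charcoal-stripped serum before the ligands were given, in every group including vehicle. The 10 samples formed 5 groups of 2 biological replicates: vehicle, 100 nM dexamethasone (Dex, a synthetic glucocorticoid) for 2 h or 4 h, and 10 μM Compound A (CpdA, a ligand described as a selective modulator of the glucocorticoid receptor) for 2 h or 4 h. The labels number the vehicle samples as replicates 1 and 2 and give them no time, while the column headings of the deposited values carry 2h for the first and 4h for the second. Both served as the reference for all treated groups. If the headings are times, the vehicle samples differ in time as well as in replicate, the spread between them holds both, and each treated group has a single vehicle sample of its own time. Among the vehicle samples, time then cannot be told apart from replicate. The comparisons of 4 h with 2 h use no vehicle, so in them time in culture cannot be told apart from treatment time.

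Histones are the proteins around which DNA is wound. Replication-dependent histone genes lie in clusters, have no introns and are copied mainly in S phase, when new chromatin needs histones in bulk. Their mRNAs typically end in a short stem-loop, bound by SLBP, in place of a poly(A) tail. Variant histones are made throughout the cell cycle from ordinary polyadenylated mRNAs and replace the bulk histones at promoters, at damaged DNA or in silent chromatin. The library kit used here captures RNA by its poly(A) tail, so in these libraries a low level of a replication-dependent mRNA and the lack of a tail on it cannot be told apart. In RNA from whole cultures, fewer cells in S phase and less histone mRNA per cell cannot be told apart either.

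The stem-loop is the sequence that separates both classes and is shown first. On GRCh37, the same assembly as the hg19 named in the submitters' processing notes, 48 of the 54 replication-dependent genes were found in the GENCODE annotation. All 48 had a single exon in the transcript taken as canonical, and all 48 carried a match with 0 mismatches to the stem-loop consensus within 150 bases after the stop codon. Of the 10 variant genes, only H2AFX carried one. The 6 genes shown are the pair with the highest replication-dependent levels, the other replication-dependent genes that differed in a comparison, and H2AFX. They are written 5′ to 3′ on the gene's strand, with both arms of the stem in capitals and the loop in lower case.
HIST1H2BK: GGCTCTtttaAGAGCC
HIST1H1C: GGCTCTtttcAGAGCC
HIST1H4H: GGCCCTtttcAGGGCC
HIST1H2AG: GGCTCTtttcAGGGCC
HIST2H2BE: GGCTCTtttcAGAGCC
H2AFX: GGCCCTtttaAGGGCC

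These stem-loops lay in the 3′ UTR of each gene at chr6:27114145-27114160 on the reverse strand (HIST1H2BK), chr6:26055972-26055987 reverse (HIST1H1C), chr6:26285359-26285374 reverse (HIST1H4H), chr6:27101294-27101309 forward (HIST1H2AG), chr1:149857738-149857753 reverse (HIST2H2BE) and chr11:118965608-118965623 reverse (H2AFX). The form of HIST1H1C and HIST2H2BE was the most frequent, in 29 of the 48 genes, and that of HIST1H2BK was in 7. The form of HIST1H4H was in 5 genes, HIST1H2AG was the single replication-dependent gene with its form, and the form of H2AFX was in no replication-dependent gene. A poly(A) signal (AATAAA or ATTAAA in the last 40 bases of an annotated transcript) was found for all 10 variant genes, H2AFX included, and for 13 of the 48 replication-dependent genes. HIST1H2AC, HIST1H2BD, HIST1H4H and HIST2H2BE were among these 13, while HIST1H2BK, HIST1H1C and HIST1H2AG had no annotated transcript with the signal.

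The promoters were taken from the RefSeq table on GRCh38.p14, which held 57 of the 64 members and 27305 genes in all, each with 250 bases before and 50 after the start. The motifs searched, on both strands, were CCAAT (a box bound by NF-Y) and TATAAA (the TATA box), the glucocorticoid response element, taken as AGAACA followed after any 3 bases by its mirror TGTTCT, and the single element AGAACA, which lies within it. CCAAT was in 89.6% of 48 replication-dependent promoters, 66.7% of 9 variant promoters and 35.7% of all promoters. TATAAA was in 64.6%, 44.4% and 12.0%. By histone type, CCAAT was in all 4 H1, 12 H2A, 18 H2B and 7 H3 promoters of the replication-dependent class, and in 2 of 7 H4 promoters. The full response element was in 0 member promoters and in 1 of all 27305. The single element was in 15 of 48 replication-dependent promoters (31.2%) and 2 of 9 variant promoters (22.2%), against 14.9% of all. Some members are transcribed away from each other with starts 170 to 319 bases apart, so their searched stretches overlap. A site in the overlap counts for both genes, and these promoters are not independent of each other. Promoters are shown for HIST1H4H and HIST1H2AG, which later differed with Dex and with CpdA, and for H2AFX. They are the 250 bases before the start, 5′ to 3′ on the gene's strand, with CCAAT and TATAAA on either strand in capitals.
HIST1H4H: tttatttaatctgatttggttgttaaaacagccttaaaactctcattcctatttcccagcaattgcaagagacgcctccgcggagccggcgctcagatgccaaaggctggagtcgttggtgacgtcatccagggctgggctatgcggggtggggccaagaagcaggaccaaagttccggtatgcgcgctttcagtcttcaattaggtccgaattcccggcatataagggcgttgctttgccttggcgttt
HIST1H2AG: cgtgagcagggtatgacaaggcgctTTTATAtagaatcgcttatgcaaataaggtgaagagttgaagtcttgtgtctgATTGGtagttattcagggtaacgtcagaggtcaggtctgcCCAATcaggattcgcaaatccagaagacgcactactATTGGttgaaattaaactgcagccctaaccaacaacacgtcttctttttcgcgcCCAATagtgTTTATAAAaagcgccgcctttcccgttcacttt
H2AFX: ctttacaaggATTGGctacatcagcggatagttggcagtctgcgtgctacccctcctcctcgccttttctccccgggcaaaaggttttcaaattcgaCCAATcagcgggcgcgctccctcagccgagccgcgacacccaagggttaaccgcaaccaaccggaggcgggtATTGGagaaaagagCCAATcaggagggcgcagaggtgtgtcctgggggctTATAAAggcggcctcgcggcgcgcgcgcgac

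On GRCh38.p14 these stretches are chr6:26285535-26285784 on the reverse strand (HIST1H4H), chr6:27132793-27133042 forward (HIST1H2AG) and chr11:119095466-119095715 reverse (H2AFX). HIST1H4H had no match to CCAAT or TATAAA. HIST1H2AG had 4 CCAAT matches, and its start lay 248 bases from that of HIST1H2BJ, which is transcribed in the other direction. By the outermost annotated starts on GRCh37, HIST1H2AG belonged to 1 of 10 such head-to-head pairs among the members. The pair that is 319 bases apart has the start of another member between its own, so it is no separate pair.

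Values are RPKM, the reads on a gene scaled for transcript length and for the number of mapped reads. The length used for each symbol is not given. The libraries were captured by the poly(A) tail, so RPKM of the classes cannot be set against each other as mRNA amounts. As listed, the RPKM of variant histone genes were, as a class, far higher than those of replication-dependent ones in every sample. The median of the genes' mean RPKM was 63.9 for the 10 variant genes and 0.0944 for the 54 replication-dependent genes, of which 38 had a mean under 0.5 and 28 were listed at 0 in at least 1 sample. Summed over each class, variant genes reached 708 to 796 RPKM per sample and replication-dependent genes 75.6 to 83.1 RPKM, which is 10.0% to 11.7% of the variant sum. The 4 highest replication-dependent genes made 83.4% to 86.9% of that class's sum. The plot of levels by gene shows how steeply the replication-dependent class falls away behind these 4 genes.

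**Figure D1:**
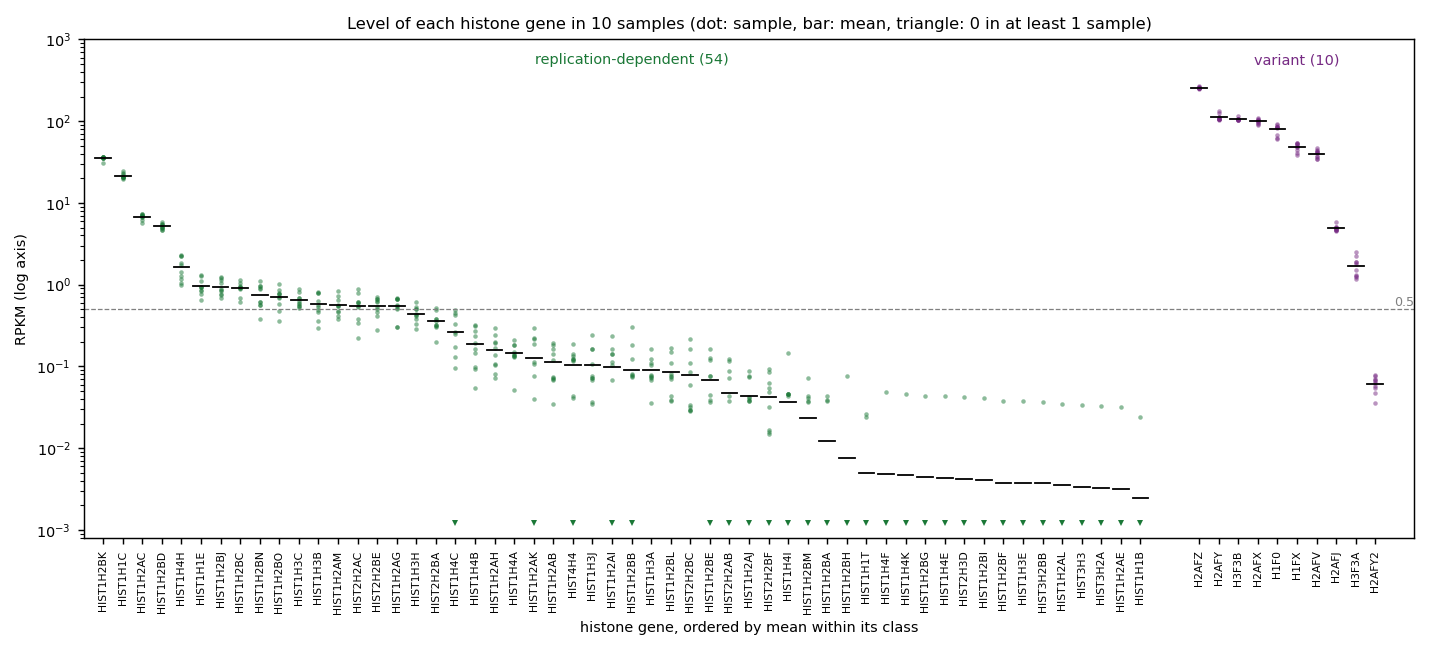
RPKM on a log axis for each of the 64 histone genes, replication-dependent on the left and variant on the right, ordered by mean. Dots are the 10 samples, bars the means, triangles mark genes at 0 in at least 1 sample, and the dashed line is the 0.5 RPKM used as the filter, under which 38 of the 54 replication-dependent means lie.

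Among replication-dependent genes the order by mean was HIST1H2BK (an H2B gene, 35.5 RPKM, range 31.0 to 36.8), HIST1H1C (a linker histone H1 gene, 21.5, range 19.8 to 24.2), HIST1H2AC (H2A, 6.82, range 5.75 to 7.40), HIST1H2BD (H2B, 5.18, range 4.60 to 5.84) and HIST1H4H (H4, 1.63, range 0.991 to 2.33). The ranges of HIST1H2AC and HIST1H2BD touched, and those of the other neighbours in this order did not. HIST1H2BK was nearly level over the groups, and its lowest sample was Dex 4 h replicate 2. Because histone genes resemble each other, 57.2% of the 50-base stretches of HIST1H2BK occur elsewhere in GRCh37, so reads of this length could be placed on more than 1 gene and its level is uncertain. The same share was 0% for HIST1H1C and HIST1H4H, and the median over the class was 1.6%, with 7 genes above 25%.

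Among variant genes H2AFZ, which encodes the H2A.Z found at promoters, was highest at 256 RPKM (range 249 to 268). H2AFY, which encodes macroH2A, a large variant of silent chromatin, followed at 112 (range 104 to 133), then H3F3B, which encodes H3.3, at 106 (range 103 to 116), and H2AFX, the variant phosphorylated at DNA breaks, at 99.8 (range 89.9 to 109). The ranges of these 3 genes overlapped. The linker histones H1F0 and H1FX had means of 79.6 and 48.2 RPKM, H2AFV, the second H2A.Z gene, had 40.1, and H2AFJ, an H2A variant, had 4.93. H2AFY2, the second macroH2A gene, was at 0.0358 to 0.0790 RPKM, or 4 to 10 reads per sample.

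H3F3A encodes the same H3.3 protein as H3F3B, yet it was listed at only 1.17 to 2.49 RPKM, against 103 to 116 for H3F3B. Of its 50-base stretches, 94.0% occur elsewhere in GRCh37. The related genes H3F3C and H3F3AP4, which the rule leaves out, were listed at 31.1 to 35.6 and 0.604 to 1.92 RPKM. Most reads of H3F3A could therefore be placed at more than 1 site at this read length, and its level is uncertain. Which sites share these stretches was not determined.

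Low levels mean few reads. Where few reads fall on a gene, its RPKM can only take multiples of the value of 1 read, which gave whole read numbers, within 0.03 of a read, for 35 replication-dependent genes. Of these, 28 never passed 25 reads in a sample and 20 never passed 10. Genes above 0 in only 1 sample could not be resolved this way and are missing from the 35. HIST1H2BK, HIST1H1C, HIST1H2AC and HIST1H2BD are missing as well, so the 35 leave out both the lowest and the highest genes. Together the 35 genes had 329 to 433 reads per sample. The same steps gave relative depths of 1.0 and 1.013 for the vehicle samples and 1.058 to 1.212 for the treated ones, so vehicle was sequenced least in every comparison with it, and the part of depth in those comparisons was not tested.

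Markers of the labelled cell line and of other cell types were checked. All 6 listed genes of the mesenchymal type were expressed, from 33.7 (EGFR) to 1397 (VIM) RPKM on average. Of 8 luminal genes, ESR1 and PGR, the oestrogen and progesterone receptors, never passed 0.0048 RPKM, FOXA1 and CDH1 had means under 0.5, and ERBB2, GATA3, KRT8 and KRT18 had means of 4.71 to 279. Of the leukocyte genes analysed, PTPRC, CD3E and LYZ had means of at most 0.263 and CD68, which is not confined to leukocytes, had 33.4. The 4 glucocorticoid response genes TSC22D3, FKBP5, PER1 and PDK4 all rose at Dex 2 h and Dex 4 h. With CpdA 3 of 4 rose at 2 h and 4 of 4 at 4 h, by far less. Their median log2 differences from vehicle were 4.73 at Dex 2 h and 5.04 at Dex 4 h. With CpdA they were 0.50 at 2 h and 0.48 at 4 h. All 4 passed a 2-fold difference at both Dex times, 1 at CpdA 2 h and 0 at CpdA 4 h. Of all genes tested, 4.49% and 9.26% rose at Dex 2 h and 4 h, and 1.89% and 6.76% at CpdA 2 h and 4 h.

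Each pair of groups was compared on log2(RPKM + 0.1) in 1 limma model over all 10 samples, with p-values adjusted over the 12713 genes that reached 0.5 RPKM in at least 2 samples. The filter kept 26 histone genes, 17 replication-dependent and 9 variant, the missing variant being H2AFY2. HIST1H3B, HIST2H2BE, HIST1H2AG and HIST1H3H did not reach 0.5 RPKM in every group, so their levels decided whether they were tested, and counts over the genes kept support no statement on the class. With 2 samples against 2 an exact permutation test cannot go below p = 0.333, so each call rests on the spread that limma pools over groups and genes. The 4 comparisons with vehicle share the same 2 vehicle samples.

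Over the 8 comparisons 9 histone genes passed an adjusted p of 0.05 at least once, 4 replication-dependent and 5 variant. On the log2(RPKM + 0.1) scale 0 passed a 2-fold difference, but the added 0.1 shrinks the differences of low genes. In mean RPKM, without it, HIST1H4H had 2.28 at Dex 4 h and 1.10 at CpdA 4 h. HIST1H2AG had 0.619 and 0.304, so both were slightly over 2-fold apart. Of all 12713 genes tested, 104 to 598 passed a 2-fold difference on the log2(RPKM + 0.1) scale in a comparison, so 0 of 26 supports no statement on histone genes. The share of all genes that passed at least once was not counted, so 4 and 5 support no statement on the classes. At Dex 2 h, 2 of 26 passed, both higher than vehicle (10.3% of all genes tested passed, 4.49% higher and 5.82% lower). At Dex 4 h, 3 of 26 passed (27.4% of all genes), 2 higher (9.26%) and 1 lower (18.2%). At CpdA 2 h, 1 of 26 passed (6.18%), a lower one (4.29% lower and 1.89% higher among all genes), and at CpdA 4 h 6 of 26 passed (20.5%), 1 higher (6.76%) and 5 lower (13.8%). Between ligands at 2 h, 1 of 26 passed, higher with Dex (13.7% of all genes in either direction, 7.53% higher with Dex). At 4 h, 8 of 26 passed (33.4%), 6 higher with Dex (15.4%) and 2 higher with CpdA (18.0%). Between 4 h and 2 h, 2 of 26 passed with Dex (13.6%), 1 up (4.55%) and 1 down (9.02%), and 3 of 26 with CpdA (12.4%), all down (7.2% of all genes down and 5.21% up). Shares of histone genes past the test thus lay between 3.85% and 30.8%, and with the exception of CpdA 4 h (23.1%) each was below the share of all genes.

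**Figure D2:**
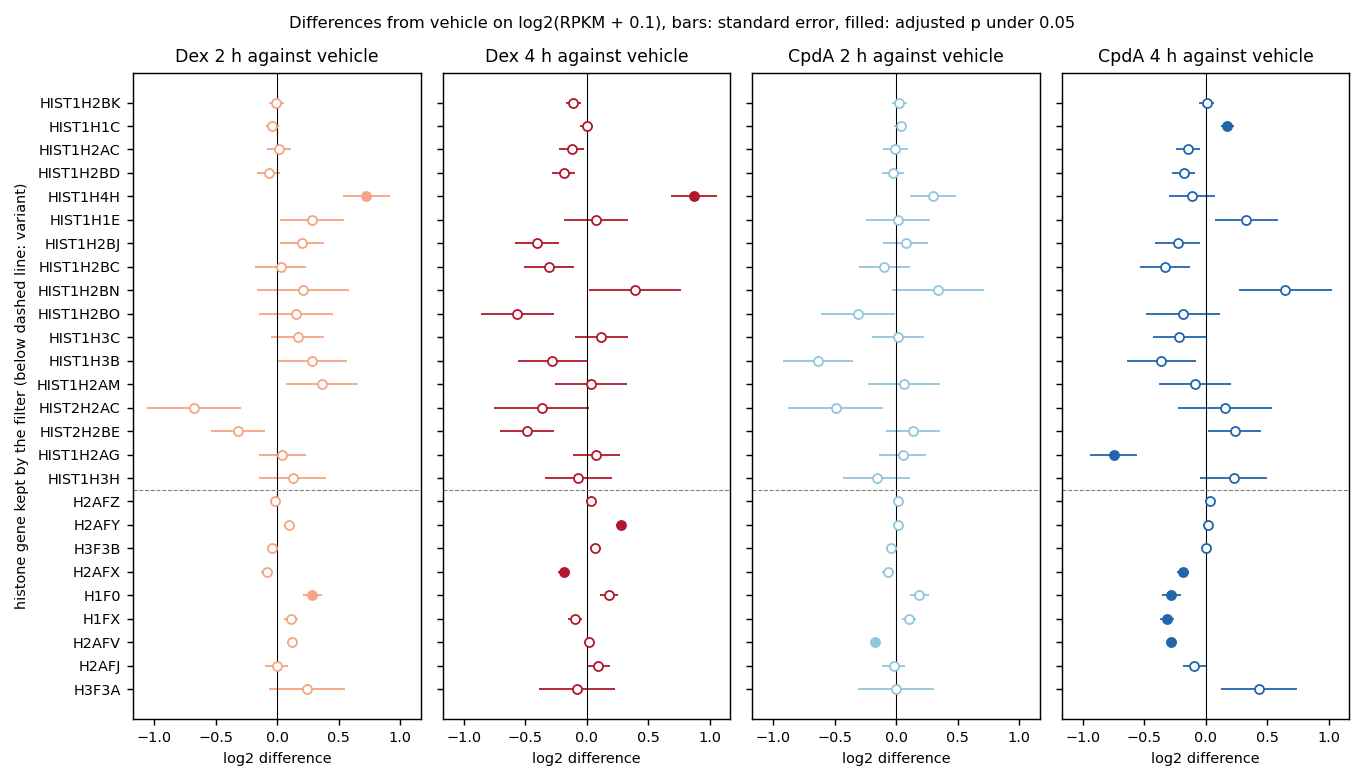
Difference from vehicle on log2(RPKM + 0.1) for the 26 histone genes kept, 1 panel per treated group, with standard errors; filled points passed an adjusted p of 0.05. The 2, 3, 1 and 6 filled points lie within 1 unit of 0. In these panels 0 of the 26 genes passed a 2-fold difference, against 325, 530, 125 and 155 of all 12713 genes tested.

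Median differences from vehicle were small in both classes. For the 17 replication-dependent genes they were 0.13 at Dex 2 h, -0.11 at Dex 4 h, 0.016 at CpdA 2 h and -0.11 at CpdA 4 h. For the 9 variant genes they were 0.099, 0.034, 0.0009 and -0.094, and for all genes tested -0.018, -0.052, -0.016 and -0.037. Individual replication-dependent genes spread widely, from -0.68 to 0.72 at Dex 2 h and from -0.75 to 0.65 at CpdA 4 h.

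The widest separation of both classes was between ligands at 4 h, where the median difference of Dex from CpdA was -0.12 for replication-dependent and 0.19 for variant genes, against -0.021 for all genes. At 2 h these medians were 0.12, 0.017 and -0.0058. The gap between the class medians at 4 h, -0.31, was -0.028 without Dex 4 h replicate 1 and -0.43 without Dex 4 h replicate 2, so its size rested on single samples.

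The sums of RPKM differed little between groups. The variant sum was lowest in the CpdA 4 h samples, at 708 and 711 RPKM, and was 751 and 740 with vehicle, 772 and 758 after 2 h of Dex, 796 and 753 after 4 h of Dex, and 752 and 749 after 2 h of CpdA. CpdA 4 h lay apart from the other 4 groups. The 4 highest replication-dependent genes summed to 63.1 to 71.8 RPKM and the other 50 to 10.9 to 13.7 RPKM, with overlapping groups.

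**Figure D3:**
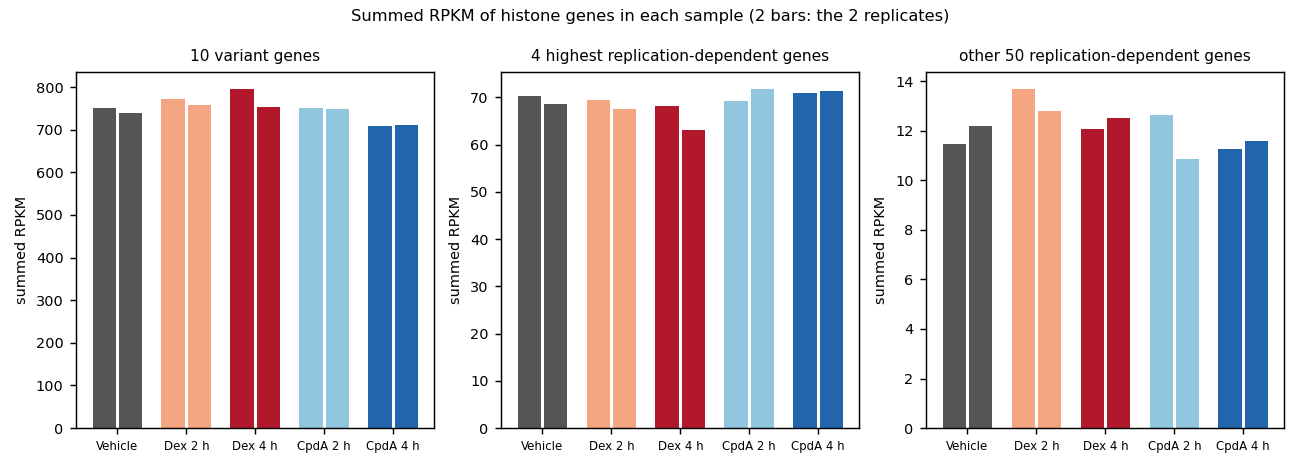
Summed RPKM per sample, from 0, of the 10 variant genes, the 4 highest replication-dependent genes and the other 50, with 1 bar per replicate and colours for the 5 groups. The CpdA 4 h bars of the variant genes, 708 and 711, are the lowest, and the replication-dependent sums show no such step.

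Linker histones, which bind DNA where it enters and leaves the nucleosome, gave the largest differences that passed among the variant genes, and CpdA 4 h was their low group. H1F0 (chr22:38201236-38203439, forward strand), which is known for its rise in cells that stop dividing, had 82.6 and 67.8 RPKM with vehicle, 89.9 and 92.5 after 2 h of Dex, 83.8 and 86.0 after 4 h of Dex, 84.6 and 85.9 after 2 h of CpdA, and 61.0 and 62.3 after 4 h of CpdA. Both CpdA 4 h samples were the lowest of the 10, and the vehicle samples, which may differ in time, were further apart than the 2 samples of any other group. The vehicle sample headed 4h was the lower one, at 67.8 against 82.6, and the part of time in culture in the differences of H1F0 was not tested. H1F0 fell between CpdA 2 h and 4 h by 0.47 on the log2 scale (standard error 0.076, adjusted p = 0.00692, limma). It was higher with Dex than with CpdA at 4 h by 0.46 (adjusted p = 0.00146), a 1.38-fold difference that held under all 13 alternatives tried.

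Against vehicle H1F0 was 0.28 higher at Dex 2 h (adjusted p = 0.0473) and 0.28 lower at CpdA 4 h (adjusted p = 0.0311). Neither call held when single samples were left out. The Dex 2 h call was lost without vehicle replicate 2 (0.14, adjusted p = 0.129), Dex 2 h replicate 1 (0.31, adjusted p = 0.162) or Dex 2 h replicate 2 (0.26, adjusted p = 0.21), and the CpdA 4 h call without vehicle replicate 1 (-0.14, adjusted p = 0.0787), CpdA 4 h replicate 1 (-0.26, adjusted p = 0.156) or CpdA 4 h replicate 2 (-0.30, adjusted p = 0.111). Median scaling also ended the CpdA 4 h call (-0.21, adjusted p = 0.0732). The fall with time on CpdA kept its size, -0.45 to -0.48, without any 1 of its 4 samples, at adjusted p-values of 0.0527 to 0.0641.

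H1FX (chr3:129033614-129035129, reverse strand), a linker histone that is expressed from its own locus outside the clusters, had 50.1 and 48.3 RPKM with vehicle, 54.0 and 52.1 after 2 h of Dex, 48.5 and 43.9 after 4 h of Dex, 53.7 and 52.0 after 2 h of CpdA, and 38.2 and 41.0 after 4 h of CpdA. The CpdA 4 h samples were again the lowest of the 10. H1FX fell between CpdA 2 h and 4 h by 0.42 on the log2 scale (standard error 0.057, adjusted p = 0.00346), under all 13 alternatives as well. It was 0.31 lower at CpdA 4 h than with vehicle (adjusted p = 0.0049) and 0.22 higher at Dex 4 h than at CpdA 4 h (adjusted p = 0.0156). It also fell between Dex 2 h and 4 h by 0.20 (adjusted p = 0.0485). Of these, the call against vehicle was lost without CpdA 4 h replicate 1 (-0.26, adjusted p = 0.0545), and that between ligands without the same sample (0.17, adjusted p = 0.127) or Dex 4 h replicate 1 (0.15, adjusted p = 0.0664). The Dex time call was lost without Dex 2 h replicate 1 (-0.18, adjusted p = 0.225), Dex 2 h replicate 2 (-0.23, adjusted p = 0.13) or Dex 4 h replicate 2 (-0.13, adjusted p = 0.107), and with median scaling (-0.15, adjusted p = 0.168).

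H2A.Z is encoded by the genes H2AFZ and H2AFV. H2AFZ (chr4:100869243-100871512, reverse strand) had 254 and 253 RPKM with vehicle and 249 to 268 over all samples, and its differences from vehicle ran from -0.016 to 0.034 with 95% intervals inside -0.11 to 0.13. H2AFV (chr7:44866390-44887686, reverse strand) had 42.7 and 40.7 RPKM with vehicle, 46.4 and 44.1 after 2 h of Dex, 42.1 and 42.5 after 4 h of Dex, 37.1 and 36.8 after 2 h of CpdA, and 34.5 and 34.2 after 4 h of CpdA. All 4 CpdA samples were below all 6 others.

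H2AFV was lower with CpdA than with Dex at both times, by 0.29 at 2 h (standard error 0.041, 95% interval 0.20 to 0.39, adjusted p = 0.00121) and by 0.30 at 4 h (0.21 to 0.39, adjusted p = 0.000475). It was 0.28 lower at CpdA 4 h than with vehicle (adjusted p = 0.00168). These 3 calls held under all 13 alternatives. The difference of 0.17 from vehicle at CpdA 2 h (adjusted p = 0.0411) was lost under 8 of 13, among them without vehicle replicate 1 (-0.14, adjusted p = 0.106), vehicle replicate 2 (-0.21, adjusted p = 0.0605), CpdA 2 h replicate 1 (-0.18, adjusted p = 0.221) and CpdA 2 h replicate 2 (-0.17, adjusted p = 0.228), and with median scaling (-0.14, adjusted p = 0.112). Whether the ligands act differently on H2AFV and H2AFZ was not tested as a difference between the genes.

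H2AFY (chr5:134670071-134735604, reverse strand) had 104 and 107 RPKM with vehicle, 114 and 112 after 2 h of Dex, 133 and 124 after 4 h of Dex, 107 and 106 after 2 h of CpdA, and 108 and 107 after 4 h of CpdA. Both Dex 4 h samples were above all others, and both Dex 2 h samples were above vehicle and CpdA. H2AFY rose by 0.28 at Dex 4 h against vehicle (standard error 0.041, 1.22-fold, adjusted p = 0.000871) and was 0.26 higher than at CpdA 4 h (adjusted p = 0.00106), both under all 13 alternatives. It rose by 0.18 between Dex 2 h and 4 h (adjusted p = 0.0208), a call lost without Dex 2 h replicate 1 (0.19, adjusted p = 0.0975), Dex 2 h replicate 2 (0.17, adjusted p = 0.123) or Dex 4 h replicate 1 (0.14, adjusted p = 0.0532). The other macroH2A gene, H2AFY2, was too low to be tested.

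H2AFX (chr11:118964584-118966175, reverse strand), the variant with a stem-loop and a poly(A) signal, had 105 and 109 RPKM with vehicle, 103 and 99.6 after 2 h of Dex, 98.4 and 89.9 after 4 h of Dex, 103 and 101 after 2 h of CpdA, and 93.2 and 95.4 after 4 h of CpdA. Both vehicle samples were the highest of the 10. H2AFX was lower than vehicle by 0.19 at Dex 4 h (standard error 0.049, adjusted p = 0.0199) and by 0.18 at CpdA 4 h (adjusted p = 0.0293), and both differences rest on the shared vehicle samples. Median scaling ended both calls and shrank them to -0.12 (adjusted p = 0.188) and -0.12 (adjusted p = 0.199). The Dex 4 h call was lost without vehicle replicate 2 (-0.16, adjusted p = 0.0972) or Dex 4 h replicate 2 (-0.12, adjusted p = 0.0504). The CpdA 4 h call was lost without vehicle replicate 1 (-0.21, adjusted p = 0.0584), vehicle replicate 2 (-0.16, adjusted p = 0.12), CpdA 4 h replicate 1 (-0.17, adjusted p = 0.171) or CpdA 4 h replicate 2 (-0.20, adjusted p = 0.103).

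H3F3B (chr17:73772515-73781974, reverse strand) had 105 and 107 RPKM with vehicle, 104 and 103 after 2 h of Dex, 116 and 108 after 4 h of Dex, 104 and 103 after 2 h of CpdA, and 107 and 106 after 4 h of CpdA, and passed in 0 of 8 comparisons. Its difference from vehicle was 0.071 at Dex 4 h (95% interval -0.022 to 0.16, adjusted p = 0.245) and 0.0017 at CpdA 4 h (-0.092 to 0.095). Without Dex 4 h replicate 2 the Dex 4 h difference was 0.12 with an adjusted p of 0.0251. H2AFJ was 4.58 to 5.84 RPKM and H3F3A 1.17 to 2.49 RPKM, and neither passed in any comparison. H3F3A had a wide interval, from -0.27 to 1.13 at CpdA 4 h against vehicle.

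**Figure D4:**
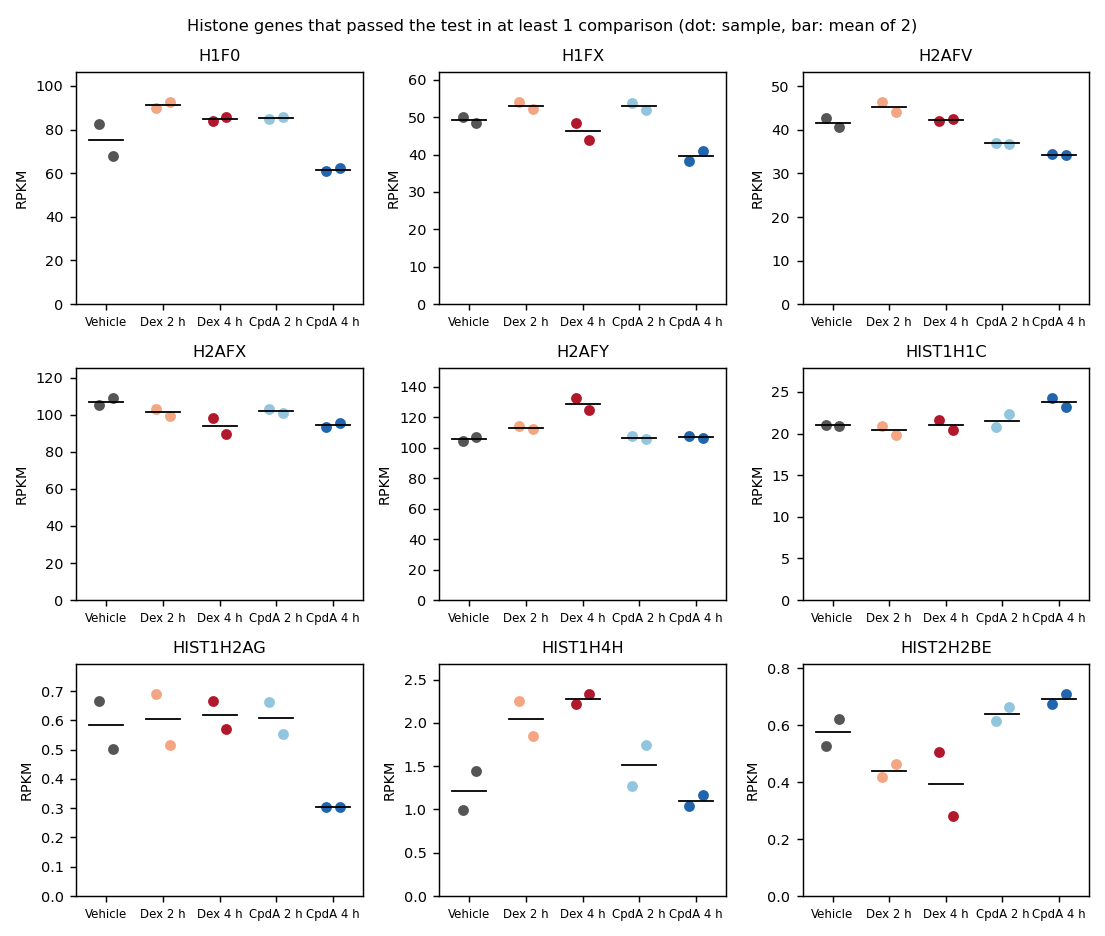
RPKM, from 0, of the 9 histone genes that passed in at least 1 comparison, with a dot per sample and a bar at the mean of 2 for each of the 5 groups. H2AFY is highest in the Dex 4 h samples (133 and 124), H1F0 and H1FX are lowest in the CpdA 4 h samples, H2AFV is lower in all 4 CpdA samples, and all 4 Dex dots of HIST1H4H lie above its other 6.

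Among replication-dependent genes HIST1H4H (chr6:26277837-26285866, reverse strand), which encodes histone H4, gave the largest differences that passed. It had 0.991 and 1.44 RPKM with vehicle, 2.25 and 1.85 after 2 h of Dex, 2.22 and 2.33 after 4 h of Dex, 1.28 and 1.75 after 2 h of CpdA, and 1.04 and 1.17 after 4 h of CpdA. All 4 Dex samples were above the other 6. These levels stood for 19 and 28 reads with vehicle, 49 and 43 after 2 h of Dex, 45 and 49 after 4 h of Dex, 29 and 38 after 2 h of CpdA, and 23 and 26 after 4 h of CpdA. Summed over a group, this is 47 reads with vehicle (exact Poisson 95% interval 34.5 to 62.5) and 94 at Dex 4 h (76.0 to 115), and these intervals cover counting error only.

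HIST1H4H rose by 0.72 on the log2(RPKM + 0.1) scale at Dex 2 h (standard error 0.19, adjusted p = 0.0431) and by 0.87 at Dex 4 h (95% interval 0.44 to 1.30, 1.83-fold, adjusted p = 0.00833). At 4 h it was 0.98 higher with Dex than with CpdA (0.55 to 1.42, 1.98-fold, adjusted p = 0.00354), under all 13 alternatives. The Dex 4 h call against vehicle was lost without vehicle replicate 1 (0.62, adjusted p = 0.0544). The Dex 2 h call was lost without vehicle replicate 1 (0.47, adjusted p = 0.172), Dex 2 h replicate 1 (0.59, adjusted p = 0.279) or Dex 2 h replicate 2 (0.86, adjusted p = 0.0791). The other 8 H4 genes, HIST1H4C and HIST1H4B the highest of them, had means of 0.0044 to 0.26 RPKM and were not tested.

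HIST1H2AG (chr6:27100822-27101314, forward strand), an H2A gene, had 0.666 and 0.503 RPKM with vehicle, 0.689 and 0.517 after 2 h of Dex, 0.667 and 0.572 after 4 h of Dex, 0.661 and 0.553 after 2 h of CpdA, and 0.305 and 0.303 after 4 h of CpdA. Both CpdA 4 h samples were below the other 8. They held 9 reads each, 18 together (exact Poisson 95% interval 10.7 to 28.5), against 13 to 20 reads in the other samples and 36 at CpdA 2 h (25.2 to 49.8).

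HIST1H2AG was lower at CpdA 4 h by 0.75 against vehicle (standard error 0.19, adjusted p = 0.024), by 0.80 against CpdA 2 h (adjusted p = 0.0278) and by 0.83 against Dex 4 h (adjusted p = 0.00913). The size depends on the pseudocount: with 1 in place of 0.1 these 3 differences were -0.28, -0.30 and, as Dex minus CpdA, 0.31, and all 3 still passed. The call against vehicle was lost without vehicle replicate 1 (-0.58, adjusted p = 0.125), CpdA 4 h replicate 1 (-0.75, adjusted p = 0.11) or CpdA 4 h replicate 2 (-0.75, adjusted p = 0.109). That against CpdA 2 h was lost without any 1 of its 4 samples (-0.91 to -0.69, adjusted p = 0.0935 to 0.188), and that against Dex 4 h without CpdA 4 h replicate 2 (0.83, adjusted p = 0.05). HIST1H2BJ, the H2B gene that starts 248 bases away in the other direction, had 0.772 and 0.872 RPKM at CpdA 4 h and 1.14 and 0.840 with vehicle, and its groups overlapped.

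HIST2H2BE (chr1:149856009-149858232, reverse strand), an H2B gene, had 0.527 and 0.624 RPKM with vehicle, 0.417 and 0.464 after 2 h of Dex, 0.506 and 0.280 after 4 h of Dex, 0.615 and 0.666 after 2 h of CpdA, and 0.675 and 0.710 after 4 h of CpdA. All 4 Dex samples were below all 6 others. A single read was worth 4.46 times as much RPKM for HIST1H2AG as for HIST2H2BE, so that a level near that of HIST1H2AG stood for more reads: 183 at CpdA 4 h (exact Poisson 95% interval 157 to 212) and 96 at Dex 4 h (77.8 to 117). HIST2H2BE was 0.72 lower at Dex 4 h than at CpdA 4 h (standard error 0.22, adjusted p = 0.0308). The call was lost without Dex 4 h replicate 2 (-0.39, adjusted p = 0.127), CpdA 4 h replicate 1 (-0.75, adjusted p = 0.104) or CpdA 4 h replicate 2 (-0.69, adjusted p = 0.137), and with a pseudocount of 1 the difference was -0.29.

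HIST1H1C (chr6:26055968-26056698, reverse strand), 1 of 4 linker histone genes of the cluster in the files, had 21.0 and 21.0 RPKM with vehicle, 20.9 and 19.8 after 2 h of Dex, 21.6 and 20.4 after 4 h of Dex, 20.8 and 22.3 after 2 h of CpdA, and 24.2 and 23.2 after 4 h of CpdA. Both CpdA 4 h samples were the highest of the 10, where the linker histone variants H1F0 and H1FX were lowest. HIST1H1C was 0.18 higher at CpdA 4 h than with vehicle (standard error 0.053, adjusted p = 0.045) and 0.18 higher than at Dex 4 h (adjusted p = 0.0287). The first call was lost without any 1 of its 4 samples (0.15 to 0.21, adjusted p = 0.107 to 0.252), and the second, given as Dex minus CpdA, without Dex 4 h replicate 2 (-0.14, adjusted p = 0.0934), CpdA 4 h replicate 1 (-0.15, adjusted p = 0.176) or CpdA 4 h replicate 2 (-0.21, adjusted p = 0.0679).

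The other highly expressed replication-dependent genes did not pass in any comparison. The difference of HIST1H2BK from vehicle was -0.0070 at Dex 2 h (95% interval -0.15 to 0.13), -0.11 at Dex 4 h (-0.25 to 0.032), 0.026 at CpdA 2 h (-0.11 to 0.17) and 0.0088 at CpdA 4 h (-0.13 to 0.15). Without Dex 4 h replicate 1 its Dex 4 h difference was -0.21 with an adjusted p of 0.00735. HIST1H2AC and HIST1H2BD were -0.12 and -0.19 at Dex 4 h (adjusted p = 0.409 and 0.168), and -0.14 and -0.18 at CpdA 4 h (adjusted p = 0.352 and 0.212). At CpdA 2 h 0 of the 17 replication-dependent genes passed in limma, and 0 had an unadjusted p under 0.05. The count was also 0 between ligands at 2 h and between Dex 4 h and 2 h, with 1 and 2 genes at an unadjusted p under 0.05. Of all genes tested, 6.18% passed at CpdA 2 h, 13.7% between ligands at 2 h and 13.6% between Dex 4 h and 2 h. With 17 genes, counts of 0 beside these shares support no statement on the class.

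Of 15 genes for histone mRNA processing and transcription, 6 fell and 1 rose at Dex 4 h, with a median of -0.12, and 3 fell and 0 rose at CpdA 4 h, with a median of -0.049. Over all genes tested 18.2% fell and 9.26% rose at Dex 4 h, and 13.8% fell and 6.76% rose at CpdA 4 h, so the 3 of 15 called at CpdA 4 h (20.0%) lie near the 20.5% of all genes. At 2 h 0 of 15 passed in limma with either ligand, and 3 had an unadjusted p under 0.05 with each. Over all genes 10.3% passed at Dex 2 h and 6.18% at CpdA 2 h, so 0 of 15 supports no statement on this list. LSM11 and LSM10, proteins of the U7 particle that cuts the mRNA behind the stem-loop, fell at Dex 4 h from 2.62 to 1.74 RPKM (log2 difference -0.56, standard error 0.087, adjusted p = 0.00117) and from 25.1 to 19.1 RPKM (-0.39, adjusted p = 0.00133). NPAT, which activates histone gene transcription at the start of S phase, fell from 6.20 to 4.39 RPKM (-0.49, adjusted p = 0.00216).

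HINFP, a transcription factor of H4 promoters, was the 1 gene of this list that rose at Dex 4 h, from 8.87 to 10.9 RPKM (0.29, adjusted p = 0.00432), and it was 0.26 higher at Dex 4 h than at CpdA 4 h (adjusted p = 0.00673). SLBP, the stem-loop binding protein, fell at CpdA 4 h from 45.1 to 38.3 RPKM (-0.23, adjusted p = 0.00883) and was -0.11 at Dex 4 h (adjusted p = 0.113). LSM10 fell at CpdA 4 h as well (-0.25, adjusted p = 0.0194).

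Histone chaperones, which carry histones to DNA, changed in both directions. Of 25 such genes, 3 rose and 7 fell at Dex 4 h, and 2 rose and 6 fell at CpdA 4 h, with medians of -0.098 and -0.064. These are 10 and 8 of the 25 genes, where the test called 27.4% and 20.5% of all genes. At 2 h, 1 rose and 1 fell with Dex (8.0%, against 10.3% of all genes), and 1 fell with CpdA (4.0%, against 6.18%). HJURP, the chaperone of the centromeric histone CENPA, fell in all 4 treated groups, by 0.26 at Dex 2 h (adjusted p = 0.00859), 0.48 at Dex 4 h (adjusted p = 8.71e-05), 0.24 at CpdA 2 h (adjusted p = 0.0233) and 0.38 at CpdA 4 h (adjusted p = 0.000828), against the same vehicle samples. CENPA itself fell at CpdA 4 h from 14.2 to 10.2 RPKM (-0.48, adjusted p = 0.00275) and was -0.22 at Dex 4 h (adjusted p = 0.0654). RBBP7, which binds histone H4, rose at Dex 4 h from 101 to 125 RPKM (0.30, adjusted p = 0.000345) and at Dex 2 h by 0.14 (adjusted p = 0.047).

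ASF1A, a chaperone of H3 and H4, separated the ligands most among these genes. It was 5.71 RPKM with vehicle, fell to 4.39 at Dex 4 h (-0.37, adjusted p = 0.00161) and rose to 8.14 at CpdA 4 h (0.50, adjusted p = 0.000589), a difference between ligands of -0.88 (adjusted p = 5.84e-06). SPTY2D1, another H3 and H4 chaperone, was 8.55 RPKM at Dex 4 h and 12.4 at CpdA 4 h (-0.54, adjusted p = 0.000177). The CAF-1 subunits CHAF1A and CHAF1B, which deposit histones behind the replication fork, fell between Dex 2 h and 4 h by 0.24 and 0.35 (adjusted p = 0.011 and 0.00138). They also fell between CpdA 2 h and 4 h, by 0.18 and 0.19 (adjusted p = 0.0356 and 0.0254).

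The listed S phase genes were mostly lower at 4 h with both ligands. This list, like those above, was chosen with earlier results of these data known, so its counts are a description and no independent support. Of 22 S phase genes, 18 fell and 0 rose at Dex 4 h (median -0.22), and 13 fell and 1 rose at CpdA 4 h (median -0.19), where 18.2% and 13.8% of all genes fell. At 2 h 1 fell with Dex and 0 passed with CpdA in limma, 5 having an unadjusted p under 0.05. Of all genes tested, 5.82% fell at Dex 2 h and 6.18% passed at CpdA 2 h. Between 2 h and 4 h, 14 fell with Dex and 10 with CpdA, and 0 rose. Among all genes, 9.02% fell and 4.55% rose with Dex, and 7.2% fell and 5.21% rose with CpdA. CCNE2, a cyclin of the entry into S phase, fell at Dex 4 h from 10.6 to 5.91 RPKM (-0.84, adjusted p = 2.13e-06), and CDC6, a licensing factor, from 32.0 to 17.6 (-0.86, adjusted p = 1.31e-05). CDC6 was the 1 gene that rose at CpdA 4 h, to 38.7 RPKM (0.27, adjusted p = 0.0173).

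CCNA2, the cyclin of S and G2 phase, had the smallest p of the list at CpdA 4 h and fell from 43.5 to 30.6 RPKM (-0.51, adjusted p = 6.28e-05), followed by FEN1, which trims DNA flaps (-0.34, adjusted p = 0.000248). CDT1, another licensing factor, fell furthest of the list at CpdA 4 h, by 0.58 against vehicle (adjusted p = 0.000503), and fell between CpdA 2 h and 4 h by 0.48 (adjusted p = 0.00371). PCNA, the sliding clamp, fell by 0.16 at Dex 4 h (adjusted p = 0.0295) and by 0.18 at CpdA 4 h (adjusted p = 0.024).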

How the data were processed

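RNA-seq was analysed in 10 samples, and 12 ChIP-exo and ChIP-seq samples of the series were not used here. The authors deposited RPKM values, 1 per gene symbol and sample, made from 50-base single-end reads. The submitters' processing notes name TopHat2 2.0.13, Bowtie, Partek 6.6 and the build hg19, and how transcripts were combined into symbols is not given in the sources used here. The submitters call the samples biological replicates. Total read counts are not in the files, and relative depth was read from the steps of low RPKM values.

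Values were tested as log2(RPKM + 0.1) with limma 3.58.1 in R 4.3.3 (abundance trend, group as the only term, 2-sided), after a filter of 0.5 RPKM in at least 2 samples, with Benjamini-Hochberg adjustment over all genes kept and a threshold of 0.05. Fold changes on this scale understate those of low genes. The replicate numbers were not used to pair samples: deviations of same-numbered samples correlated at -0.0568 to 0.198 over 10 pairs of groups. The fit was tested on simulated data. The alternatives were pseudocounts of 1 and 0.01, other filters, median scaling, quantile normalization, no trend, only the 4 samples compared, a replicate block, H2AFX moved between classes, and each sample left out.

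Genes were named by rule: the 5 highest of each class, all variant genes, in each comparison up to 5 members of each class that passed with groups that did not overlap, and set genes plus the 2 with the smallest p of each gene list. HIST1H2BJ, HIST1H3A, HIST1H3B, HIST1H3H, HIST1H4B and HIST1H4C fall outside this rule and were chosen after their values were seen, and cell type markers came from lists of their own. The members and lists were chosen with earlier results of these data known. Sequences came from GENCODE on GRCh37 and the RefSeq promoter table on GRCh38.p14.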

Additional observations from a re-analysis of the deposited data

Results flagged for a closer look

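For 5 results the level differed between the 4 h and the 2 h samples of a ligand, by the limma test of 4 h against 2 h. No vehicle of matching time entered this test, so a difference in the ligand's effect was not tested. With Dex, H1FX, a linker histone, was lower at 4 h than at 2 h by a log2 difference of -0.2017 (adjusted p = 0.0485). H2AFY, which encodes macroH2A, was higher at 4 h by 0.1826 (adjusted p = 0.0208).

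With CpdA, 3 genes were lower at 4 h than at 2 h. The linker histone H1F0 differed by -0.4677 (adjusted p = 0.00692) and H1FX by -0.4174 (adjusted p = 0.00346). The H2A gene HIST1H2AG differed by -0.8034 (adjusted p = 0.0278), with 9 reads in each CpdA 4 h sample and 20 and 16 at CpdA 2 h. Among these 5 results, H1FX with CpdA was the 1 that still passed under every alternative.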

How the results depend on the processing

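Of 26 calls, 8 held under every alternative, 18 were lost when at least 1 sample was left out, 13 under a setting that keeps all samples, and 0 reversed. Depth limits the replication-dependent genes, of which 28 of the 35 with reads recovered never passed 25 reads in a sample. The cause of the shifts below was not tested.

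The number of histone genes that passed moved as follows. At Dex 2 h the count of 2 became 0 with no filter, 1 with quantile normalization, 0 with no trend, 0 with only the 4 samples compared, and 0 to 1 with a sample left out. At Dex 4 h the count of 3 became 2 with only the 4 samples, where H2AFX was lost, and 2 to 5 with a sample left out, and with median scaling it stayed at 3 with H2AFX lost (adjusted p = 0.188) and H1F0 gained (adjusted p = 0.035). At CpdA 2 h the count of 1 became 0 with no filter, with median scaling, with no trend and with only the 4 samples, and 0 to 1 with a sample left out. At CpdA 4 h the count of 6 became 4 with no filter (H1F0, H2AFX and HIST1H1C lost, HIST1H3A gained), 4 with median scaling (H1F0 and H2AFX lost), 5 with a mean of at least 1 RPKM (HIST1H2AG no longer tested), 3 with no trend and 1 to 4 with a sample left out. Between ligands the count of 1 at 2 h became 2 with quantile normalization and 2 with only the 4 samples, and stayed at 1 to 1 with a sample left out, and the count of 8 at 4 h became 5 to 9. Between Dex 4 h and 2 h the count of 2 became 1 with no filter, with median scaling and with no trend, 0 with only the 4 samples, and 0 to 4 with a sample left out. Between CpdA 4 h and 2 h the count of 3 became 5 with only the 4 samples and 1 to 1 with a sample left out.

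With the replicate block the count was 1 at Dex 2 h, where H1F0 was lost (adjusted p = 0.0572), and 3 between Dex 4 h and 2 h, where HIST1H2BJ was gained (-0.60, adjusted p = 0.0495). It changed no other count. Deviations of same-numbered samples correlated above 0.1 in 3 of 10 pairs of groups. These low values cannot decide whether samples of the same number were handled as pairs.

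The gap between the class medians, replication-dependent minus variant, had a replicate SD of 0.0824. This SD is pooled over the 5 groups from the differences between replicates 1 and 2 within a group. At Dex 2 h the gap was 0.0283, with -0.0655 at a pseudocount of 1, -0.0888 with no filter, -0.1058 with a mean of at least 1 RPKM, and -0.0782 to 0.1634 with a sample left out. At Dex 4 h it was -0.1423, with -0.0526 with no filter and -0.2282 to -0.1076 with a sample left out. At CpdA 2 h (0.0154) and CpdA 4 h (-0.0176) the ranges with a sample left out were -0.0626 to 0.0595 and 0.0056 to 0.0918. Between ligands at 2 h it was 0.107, with 0.0199 when H2AFX was counted as replication-dependent, -0.0109 with no filter, -0.0497 with a mean of at least 1 RPKM, and 0.0218 to 0.1745 with a sample left out. Between ligands at 4 h it was -0.3059, with -0.1292 with no filter, -0.199 with a mean of at least 1 RPKM, and -0.43 to -0.028 with a sample left out. Between Dex 4 h and 2 h (-0.0405) the range was -0.1543 to -0.0781. Between CpdA 4 h and 2 h it was 0.056, with -0.0341 when H2AFX was moved, -0.0645 with a mean of at least 1 RPKM, and 0.032 to 0.094 with a sample left out.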

Other observations

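With no filter on low values, HIST1H3A, an H3 gene that the filter had left out, was lower at CpdA 4 h than with vehicle by 0.67 on the log2 scale (limma, adjusted p = 0.0181). It rested on 7 reads over both vehicle samples (exact Poisson 95% interval 2.81 to 14.4) and 3 over both CpdA 4 h samples (0.62 to 8.77), so a difference was not detectable in the reads at this depth.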
